A study of Mus musculus with 6 samples.

Results

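The RNAs described here are the autosomal transcripts that RefSeq files as noncoding and for which the array carries a probe. Members were taken by rule: every gene probe whose accession starts with NR_, whatever its signal, on chromosomes other than X and Y. That gave 562 transcripts of 554 genes, measured by 657 probes, out of 37932 distinct transcript or sequence names among the 55681 gene probes. The array holds 652 NR_ accessions in all. A further 37 lay on X or Y, and 53 had no chromosome in the RefSeq gene table and were left out for that reason. The RefSeq table, on GRCm38.p6, classed 382 of the members as long noncoding or antisense RNAs, 154 as transcribed pseudogenes, 16 as small structured RNAs or ribosomal RNAs, and 10 as noncoding transcripts of coding genes. RNA came from primary mammary epithelial cells of 8-week-old female mice of 129sv/C57Bl6 background, obtained by isolating and dissociating the mammary glands. A group of 3 Plk2 -/- samples, called null below, was set against 3 wild-type (Plk2 +/+) samples, each on its own array. No label states a promoter, a Cre or the part of Plk2 that was deleted, and none says whether a sample holds the cells of 1 mouse or of several. P-values therefore measure the spread between these samples.

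Long noncoding RNAs are transcribed and often spliced like messenger RNAs but carry no long reading frame. Some stay in the nucleus and build bodies there, as Neat1 does for paraspeckles, some act on the imprinted genes beside them, and others serve mainly as hosts from which microRNAs or small nucleolar RNAs are cut. Transcribed pseudogenes are copies of coding genes that have lost their reading frame. The polo-like kinase gene Plk2, a serine/threonine kinase, is the gene missing in the null mice, and the comparison asks which of these RNAs differ without it.

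The level of a transcript is the log2 of its background-corrected spot brightness minus the array's 75th percentile, so that 0 is the 75th percentile. Brightness depends on the probe as well as on the RNA, so levels are compared between samples of 1 probe and never used to order different RNAs by abundance. Plk2 itself had processed signals of 1160 to 1472 in wild type and 1.87 to 2.44 in null samples. Over the measured members, the correlation of 2 arrays was 0.977 to 0.986 if both were wild type, 0.983 to 0.987 if both were null and 0.964 to 0.982 across genotypes. Wild-type samples occupied slide row 1 and null samples row 2, and these 2 factors cannot be told apart. Markers of other cell types and of the cell cycle differed between the genotypes, though few of these genes passed the test singly. All 19 measured of 20 lymphocyte markers were lower in null samples (median difference -2.48), with a summed scaled signal of 143.4 to 228.6 in wild type and 64.9 to 92.4 in null samples. Among them only Pax5 was well above background on no null array. Thy1 had the brightest probe of this list in both groups (mean level 6.25 in wild type, 5.66 in null) and so weighed most in these sums. Thy1 is also counted among the fibroblast markers, so the lymphocyte and fibroblast lists are not fully separate. All 12 fibroblast markers were lower (median -0.54), with sums of 1825 to 2009 against 1210 to 1719. All 10 hormone-sensing luminal genes were lower (median -0.89; sums 196.5 to 224.5 against 90.4 to 218.7), and all 24 measured mitosis genes were higher (median 2.03; sums 18.6 to 28.4 against 63.8 to 191.3). All 10 endothelial markers were lower too (median -0.38), as were 8 of 9 macrophage markers (median -0.49), with Cd14 higher (0.43). The summed signals of both these lists overlapped between the groups. Of 14 p53 targets, 8 were lower and 6 higher (median -0.28). At an adjusted p under 0.05 (limma), 1 mitosis gene was called higher and 2 hormone-sensing genes lower. No lymphocyte, fibroblast, endothelial, macrophage, epithelial or p53 target gene of these lists was called. With spike-in scaling 1 fibroblast marker and 1 hormone-sensing gene turned higher, and 3 endothelial and 2 macrophage markers were higher. The 10 epithelial markers, including Krt18, Krt8 and Epcam, were well above background in every sample and had a median difference of 0.07. Their values went both ways: Krt14 and Krt5, keratins of basal cells, differed by 0.91 and 0.96 and Cldn4, a tight junction gene, by -0.71 (adjusted p of 0.140 to 0.233). In such bulk samples fewer cells of a type and less RNA per cell cannot be told apart, and the part of these shifts in any result below was not tested.

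Promoters are shown for the 4 long noncoding RNAs that passed the test and have an entry in the RefSeq promoter table, and for Meg3 and Mir22hg, an imprinted RNA and a microRNA host described below. Each is the 300 bases from 250 before to 50 after the annotated start on GRCm38.p6, written 5′ to 3′ in the sense of transcription. Capitals mark exact matches, on either strand, to the letters TTTGAA (the cell-cycle homology region element), CCAAT or TATAAA.
Gm10516 (chr1:192136648-192136947, plus strand): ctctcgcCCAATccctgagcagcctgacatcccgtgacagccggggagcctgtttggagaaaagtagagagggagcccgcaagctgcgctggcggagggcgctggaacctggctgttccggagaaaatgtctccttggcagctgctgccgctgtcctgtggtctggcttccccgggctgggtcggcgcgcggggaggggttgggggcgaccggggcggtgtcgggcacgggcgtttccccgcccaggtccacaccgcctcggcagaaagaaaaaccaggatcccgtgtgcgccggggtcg
Gm45351 (chr7:9876918-9877217, minus strand): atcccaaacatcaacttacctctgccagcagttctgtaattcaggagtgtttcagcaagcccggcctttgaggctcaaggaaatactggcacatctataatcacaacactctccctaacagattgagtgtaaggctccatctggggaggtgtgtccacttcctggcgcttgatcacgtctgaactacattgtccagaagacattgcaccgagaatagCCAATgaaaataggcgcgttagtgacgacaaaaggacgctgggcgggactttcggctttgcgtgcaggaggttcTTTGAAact
4930417O13Rik (chr6:125265275-125265574, plus strand): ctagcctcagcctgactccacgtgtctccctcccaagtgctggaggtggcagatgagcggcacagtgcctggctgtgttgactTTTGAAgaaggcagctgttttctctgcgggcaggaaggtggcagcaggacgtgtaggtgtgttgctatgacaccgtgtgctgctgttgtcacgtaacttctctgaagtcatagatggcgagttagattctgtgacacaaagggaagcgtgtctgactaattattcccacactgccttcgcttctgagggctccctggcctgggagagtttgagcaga
2010016I18Rik (chr3:106485864-106486163, minus strand): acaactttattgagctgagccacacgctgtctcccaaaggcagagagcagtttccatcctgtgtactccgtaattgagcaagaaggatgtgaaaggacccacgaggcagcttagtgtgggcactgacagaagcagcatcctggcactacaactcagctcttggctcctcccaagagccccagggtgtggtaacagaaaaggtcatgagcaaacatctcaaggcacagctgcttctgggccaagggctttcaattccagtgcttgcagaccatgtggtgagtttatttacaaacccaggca
Meg3 (chr12:109540746-109541045, plus strand): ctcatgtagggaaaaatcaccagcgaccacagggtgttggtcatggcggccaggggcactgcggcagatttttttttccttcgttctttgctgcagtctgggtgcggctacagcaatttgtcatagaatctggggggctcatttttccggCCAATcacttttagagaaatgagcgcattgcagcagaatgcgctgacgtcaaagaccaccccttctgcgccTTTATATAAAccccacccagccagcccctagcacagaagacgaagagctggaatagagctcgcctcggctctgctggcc
Mir22hg (chr11:75461289-75461588, plus strand): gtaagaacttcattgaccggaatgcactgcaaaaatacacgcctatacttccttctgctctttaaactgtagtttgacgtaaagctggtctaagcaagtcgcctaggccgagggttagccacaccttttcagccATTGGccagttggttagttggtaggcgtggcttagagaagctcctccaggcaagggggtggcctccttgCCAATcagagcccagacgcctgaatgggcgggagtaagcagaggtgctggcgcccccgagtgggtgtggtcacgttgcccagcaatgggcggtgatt
Promoters of Meg3, Mir22hg, Gm10516 and Gm45351 held CCAAT, and Meg3 also held TATAAA from base -25 together with its overlapping reverse complement from base -29. TTTGAA stood at base -167 of 4930417O13Rik and at base 41 of Gm45351, the latter after the start site. The window of 2010016I18Rik held none of these letters. Such matches are common: CCAAT was in 37.9% of 27025 gene promoters of this length and in 40.4% of the 312 member genes with a promoter entry, TATAAA in 14.2% and 12.2%, and TTTGAA in 18.1% and 16.3%. The letters TTCCCGC and TTGGCGC, both bound by E2F proteins, were in 4.66% and 2.54% of all these promoters and in 5.13% and 2.56% of the members' promoters. The members' promoters thus held these letters about as often as other genes' promoters did.

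The array measures the long host transcripts and not the mature microRNAs cut from them. To show what the hosts carry, mature sequences of the hosts described below are printed from RefSeq on GRCm38.p6, with the seed (bases 2 to 8) in capitals.
miR-22-3p (Mir22hg, chr11:75463772-75463793, plus strand): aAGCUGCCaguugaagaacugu
miR-92a-3p (Mir17hg, chr14:115044476-115044496, plus strand): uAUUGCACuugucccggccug
miR-770-5p (Meg3, chr12:109563710-109563731, plus strand): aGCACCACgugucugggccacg
miR-433-3p (6430411K18Rik, chr12:109591781-109591802, plus strand): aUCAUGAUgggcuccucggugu
miR-154-5p (Mirg, chr12:109738438-109738459, plus strand): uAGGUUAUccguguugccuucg
miR-410-3p (Mirg, chr12:109743764-109743784, plus strand): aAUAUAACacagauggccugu
miR-100-5p (Mir100hg, chr9:41531437-41531458, plus strand): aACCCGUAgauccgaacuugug
miR-125b-5p (Mir100hg, chr9:41581940-41581961, plus strand): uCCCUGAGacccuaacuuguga
miR-15a-5p (Dleu2, chr14:61632075-61632096, minus strand): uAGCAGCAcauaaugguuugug
miR-16-5p (Dleu2, chr14:61631936-61631957, minus strand): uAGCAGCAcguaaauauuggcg
miR-291a-3p (D7Ertd143e, chr7:3218968-3218989, plus strand): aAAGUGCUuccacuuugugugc
miR-294-3p (D7Ertd143e, chr7:3220691-3220712, plus strand): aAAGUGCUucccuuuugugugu
miR-295-3p (D7Ertd143e, chr7:3220815-3220837, plus strand): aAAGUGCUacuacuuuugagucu
The seed AGCAGCA is shared by miR-15a-5p and miR-16-5p, both carried by Dleu2. The seed AAGUGCU is shared by miR-291a-3p, miR-294-3p and miR-295-3p, which lie within the span of D7Ertd143e.

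Many of the noncoding transcripts gave no usable signal. Of the 562, 219 were well above background on all 6 arrays, 90 on some of them and 253 on none. The number detected was 249, 247 and 263 in the wild-type samples and 251, 272 and 252 in the null samples. The mean was 253.0 ± 8.7 (SD, n = 3) in wild type and 258.3 ± 11.8 in null samples, and the groups overlapped (2-sided exact permutation test, p = 0.5; the smallest possible with 3 against 3 is 0.1). For the 382 long noncoding RNAs alone the counts were 153 to 163 in wild type and 157 to 173 in null samples. For pseudogenes they were 70 to 79 and 73 to 78. By comparison, 45.7% of the members and 71.9% of the 20681 coding (NM_) transcripts passed detection, defined as well above background on 3 or more arrays. That requirement, whatever the group, left 257 measured members, and 22353 entries of the whole array, for testing. Of the small structured and ribosomal RNAs, 14 of 16 were measured, against 74 of 154 pseudogenes and 162 of 382 long noncoding RNAs.

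**Figure D1:**
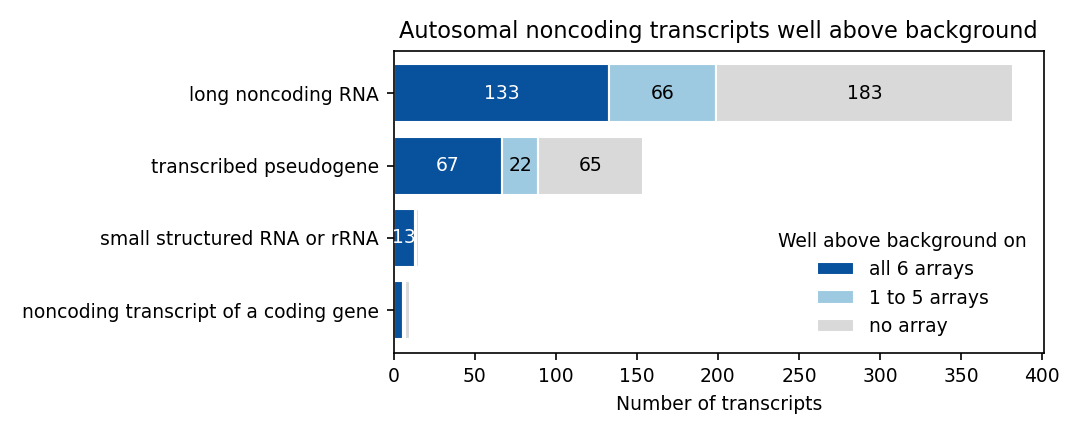
Number of autosomal noncoding transcripts (horizontal axis) in each RefSeq class, split by whether they were well above background on all 6 arrays, on 1 to 5 or on none. Among long noncoding RNAs 133 were detected on all 6 arrays and 183 on none, and among pseudogenes 67 and 65.

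Few noncoding transcripts passed the test. Each difference is the null mean log2 level less that of wild type, tested with limma over all 22353 entries and called at a Benjamini-Hochberg adjusted p under 0.05. Over the whole array 1.51% of entries were called (0.684% higher and 0.828% lower in null), and 5 of the 257 measured members (1.95%) were called: Gm10516 and Gm45351 rose, and Gm6524, 4930417O13Rik and 2010016I18Rik fell. At an unadjusted p under 0.05 the share was 24% of all entries and 19.8% of the measured members (51 transcripts, 30 higher and 21 lower). At an adjusted p under 0.1 it was 8.16% of all entries (4.43% higher, 3.73% lower) and 18 members, 9 in each direction. Null and wild-type values did not overlap for 44 members that were higher and 25 that were lower in null samples, together 26.8%, against 32.4% of all entries (19.9% higher, 12.5% lower). These shares lie near or below those of the whole array. The median difference was 0.10 over the measured members and 0.04 over all entries. The number called moved with the samples used. Leaving out null sample 1, null sample 2, wild-type sample 2 or wild-type sample 3 gave 0 members higher and 1 lower, and leaving out wild-type sample 1 gave 0 and 2. Without null sample 3 they were 2 and 6. Gm6524 was called in all 6 of these fits, and the other 4 lost their call in most of them while their differences stayed about as large. Scaling on the spike-in controls moved the median of all entries to 0.29 and the split of calls to 4 higher and 1 lower.

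Gm6524 (NR_028307, chromosome 8), a transcribed pseudogene whose parent gene the RefSeq table does not name, fell the most among the 5. Its levels were 1.48, 1.58 and 1.80 in the wild-type samples and -0.49, -0.73 and -0.34 in the null samples. Processed signals were 725.0 to 985.9 against 173.6 to 220.3, and the groups lay far apart beside their spread. The difference was -2.14 (SE 0.17; 4.4-fold; limma, adjusted p = 0.00832). It stayed past the threshold when each sample was left out in turn, with differences of -2.23 to -2.03 and adjusted p of 0.00689 to 0.0499. As for any transcribed pseudogene, its probe may also bind RNA of a near-identical gene, and the value is uncertain for that reason.

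Gm10516 (NR_033536, chromosome 1), a long noncoding RNA that overlaps the corepressor gene Rcor3, rose. Its levels were -3.89, -3.59 and -4.09 in wild type and -2.62, -2.44 and -2.42 in null samples. Every null sample was above every wild-type sample, at a low brightness of 16.6 to 20.8 against 45.1 to 53. The difference was 1.37 (SE 0.17; 2.58-fold; limma, adjusted p = 0.0331). Rcor3 itself differed by 0.12 (adjusted p = 0.629). With null sample 3 left out the adjusted p for Gm10516 was 0.0324, and with any other sample left out it was 0.0729 to 0.126; the difference was 1.25 to 1.5 throughout. The size at this low brightness depended on the processing: it was 0.53 with the authors' deposited normalized intensities (adjusted p = 0.0354) and 0.45 with normexp (adjusted p = 0.0583), which adds an offset of 50 and so shrinks the differences of dim probes.

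Gm45351 (NR_015598, chromosome 7), also a long noncoding RNA, rose. Its levels were -4.00, -3.55 and -3.14 in wild type and -1.80, -2.14 and -2.17 in null samples. The groups did not overlap, and the wild-type samples were the more spread. The difference was 1.53 (SE 0.25; 2.88-fold; limma, adjusted p = 0.0466). Without null sample 3 the adjusted p was 0.0471, and without any other sample 0.0725 to 0.148, with differences of 1.30 to 1.74. With the authors' deposited intensities the difference was 0.66 (adjusted p = 0.0406) and with normexp 0.58 (adjusted p = 0.0362). With quantile normalization the adjusted p was 0.0541.

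4930417O13Rik (NR_015527, chromosome 6), a long noncoding RNA near the alpha-tubulin gene Tuba3a, fell. Its levels were -1.48, -1.85 and -2.07 in wild type and -3.40, -3.22 and -3.87 in null samples. Every null sample lay below every wild-type sample. The difference was -1.70 (SE 0.23; 3.25-fold; limma, adjusted p = 0.0423), and Tuba3a differed by 0.03 (adjusted p = 0.946). Without null sample 3 the adjusted p of 4930417O13Rik was 0.0289, and without any other sample 0.0649 to 0.126, with differences of -1.84 to -1.51. The difference was -0.74 with the authors' deposited intensities (adjusted p = 0.0350) and -0.73 with normexp (adjusted p = 0.0259), and the call was lost with spike-in scaling (-1.44; adjusted p = 0.0612).

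2010016I18Rik (NR_033207, chromosome 3), a long noncoding RNA that overlaps Dennd2d, fell but was close to the limit of detection. Its levels were -3.04, -3.40 and -3.16 in wild type and -5.00, -4.16 and -4.61 in null samples, where it was well above background on 1 of 3 arrays. The groups did not overlap, but 2 of the 3 null levels are not well above background, so the size of the difference is uncertain. The fitted difference was -1.39 (SE 0.24; limma, adjusted p = 0.0493), and Dennd2d differed by 0.50 in the other direction (adjusted p = 0.103). Leaving out any 1 of the 6 samples put the adjusted p of 2010016I18Rik between 0.0569 and 0.149, with differences of -1.61 to -1.18. It was -0.36 with the authors' deposited intensities (adjusted p = 0.0975) and -0.39 with normexp (adjusted p = 0.103), and the call was also lost with quantile normalization (adjusted p = 0.0603) and spike-in scaling (adjusted p = 0.0664).

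**Figure D2:**
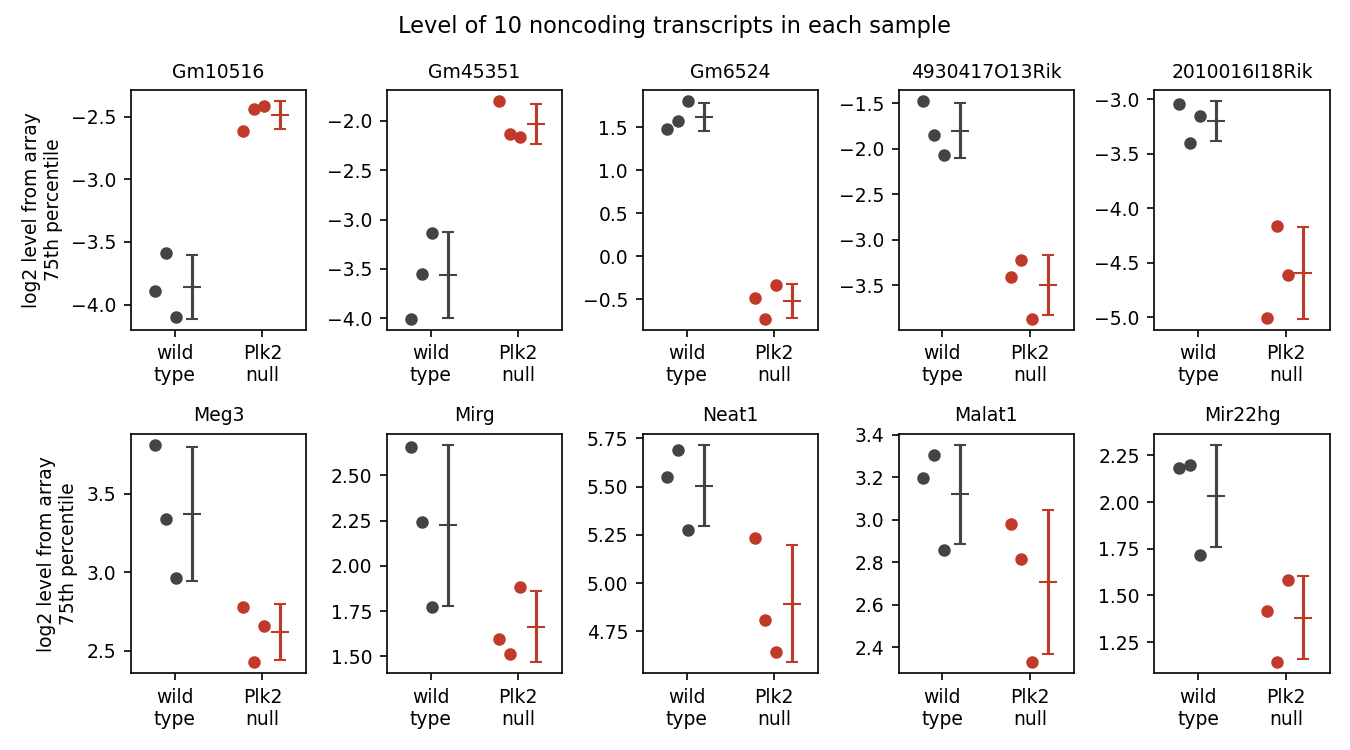
Log2 level from the array's 75th percentile (vertical axes, each with its own range) in the 3 wild-type and 3 null samples for 10 noncoding transcripts; points are samples, and the bar beside them is the mean ± SD. The upper row holds the 5 transcripts past the threshold, whose groups do not overlap. In the lower row Meg3, Neat1 and Mir22hg also do not overlap but did not pass the test, and Mirg and Malat1 overlap.

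Some larger differences did not pass the test. Among members detected on all 6 arrays with groups that did not overlap, the largest positive differences after those of Gm45351 and Gm10516 were in Tyms-ps, 2700099C18Rik, A930005H10Rik, Mm2pr, Gm8096 and Gm3020, with adjusted p of 0.0857 to 0.198. Tyms-ps (NR_000040) is a pseudogene of the thymidylate synthase gene Tyms, an enzyme of DNA precursor synthesis. Its levels were -0.47, -0.86 and -0.20 in wild type and 0.28, 1.67 and 1.02 in null samples, a difference of 1.5 (SE 0.36; adjusted p = 0.0857). Null sample 2 was the highest of the 6. A probe for Tyms gave a difference of 0.64 (SE 0.26; adjusted p = 0.197). Values for 2700099C18Rik (NR_024720), a pseudogene, were -3.40, -3.59 and -4.03 in wild type and -3.05, -1.62 and -2.87 in null samples, again with null sample 2 on top. The mitosis and DNA replication genes were also highest in null sample 2, where their median deviations from the wild-type mean were 3.13 and 1.79, while null sample 1 had 1.44 and 0.64, and 1.61 and 0.81 were the values of null sample 3. The part of that shift in these differences was not tested. The long noncoding RNA A930005H10Rik (NR_015487) differed by 1.05 (SE 0.43), with its wild-type samples spread from -0.46 to 1.30. Mm2pr (NR_015478), Gm8096 (NR_033590) and Gm3020 (NR_033117) differed by 0.94, 0.86 and 0.84.

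On the other side, the largest negative differences after those of Gm6524 and 4930417O13Rik were in 1500009C09Rik, Mirt1, B230206H07Rik, E330020D12Rik, 6330407A03Rik and Gpr137b-ps, with adjusted p of 0.0657 to 0.196. The level of 1500009C09Rik (NR_037697) was -0.98, -1.53 and -0.87 in wild type and -3.38, -3.47 and -1.89 in null samples, a difference of -1.79 (SE 0.44; adjusted p = 0.0869). Null sample 3 lay nearest to the wild-type samples, and without it the difference was -2.30 and passed the threshold (adjusted p = 0.0127). A second probe for 1500009C09Rik gave -3.38. Its neighbour Cenpm, a centromere protein gene, differed by 1.65 in the other direction (adjusted p = 0.128). Mirt1 (NR_028427) went from -1.37, -2.20 and -2.39 to -3.32, -3.65 and -3.08, a difference of -1.36 (SE 0.30; adjusted p = 0.0757). E330020D12Rik (NR_033736) differed by -1.23 (SE 0.25; adjusted p = 0.0657) and B230206H07Rik (NR_033532), which overlaps Eps8l2, by -1.26 (SE 0.39). The difference was -1.02 for 6330407A03Rik (NR_028126), which lies over the kinase gene Lyn, with null sample 3 at -4.07 against -2.58 and -2.57 in the other null samples. Gpr137b-ps (NR_003568) differed by -0.99 (SE 0.24; adjusted p = 0.0830), and by -1.23 without null sample 3 (adjusted p = 0.0268).

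**Figure D3:**
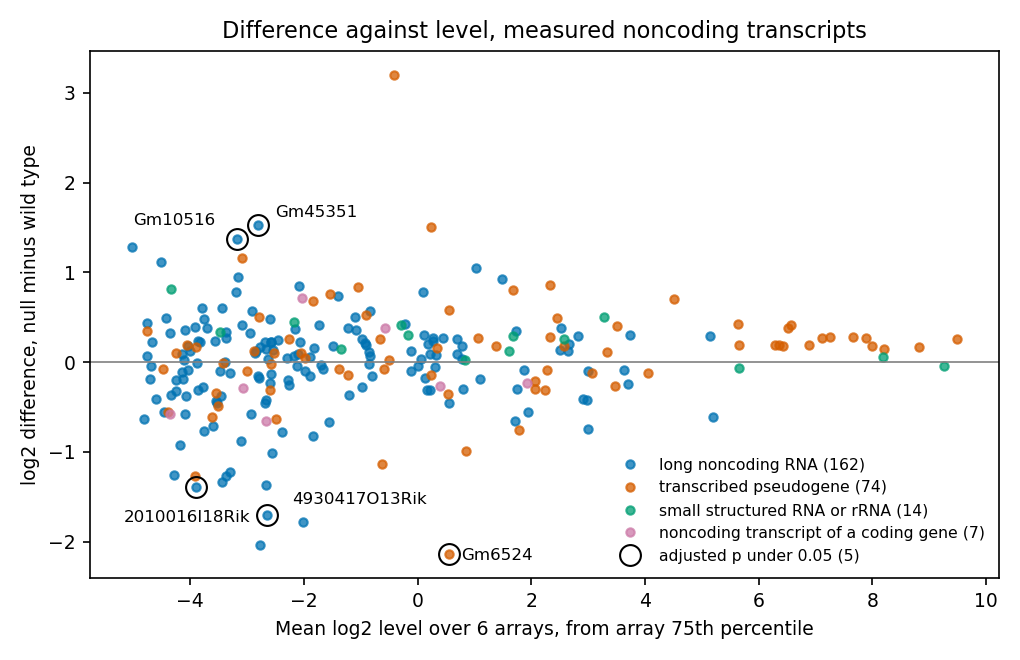
Difference in log2 level, null minus wild type (vertical axis), against the mean log2 level over the 6 arrays (horizontal axis) for the 257 measured noncoding transcripts, coloured by RefSeq class; rings mark the 5 past the threshold. Of these 5, 4 are dim, with mean levels from -3.90 to -2.65, and Gm6524 is at 0.55; the highest point is Gm5801, at 3.20, where 1 wild-type sample stood apart.

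Counts by direction were taken for each RefSeq class. Of 162 measured long noncoding RNAs, 86 were higher and 76 lower in null samples (median 0.04), and 18 were above and 20 below without overlap. Of 74 measured pseudogenes, 47 were higher and 27 lower (median 0.17), with 21 above and 4 below without overlap. Of the 14 small structured or ribosomal RNAs, 12 were higher and 2 lower (median 0.27), with 4 above and 0 below without overlap. Of the 7 measured noncoding transcripts of coding genes, 2 were higher and 5 lower (median -0.27), with 1 above and 1 below without overlap. Among the 22353 entries, 53.3% were higher in null samples, and 19.9% lay above and 12.5% below without overlap. Quantile normalization changed the pseudogene median to 0.09 and the authors' deposited normalized intensities to 0.04, with 17 and 6, and 15 and 6, above and below without overlap. Over all entries the medians were then 0.02 and 0.01, and 32.6% and 31.5% lay above or below without overlap. With spike-in scaling 117 of the 162 long noncoding RNAs were higher (median 0.30), with 32 above and 7 below without overlap. Of the 74 pseudogenes 59 were higher (median 0.43). That scaling moved the whole array too: the median over all entries was 0.29, and 33.0% lay above or below without overlap. No difference between classes was tested.

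**Figure D4:**
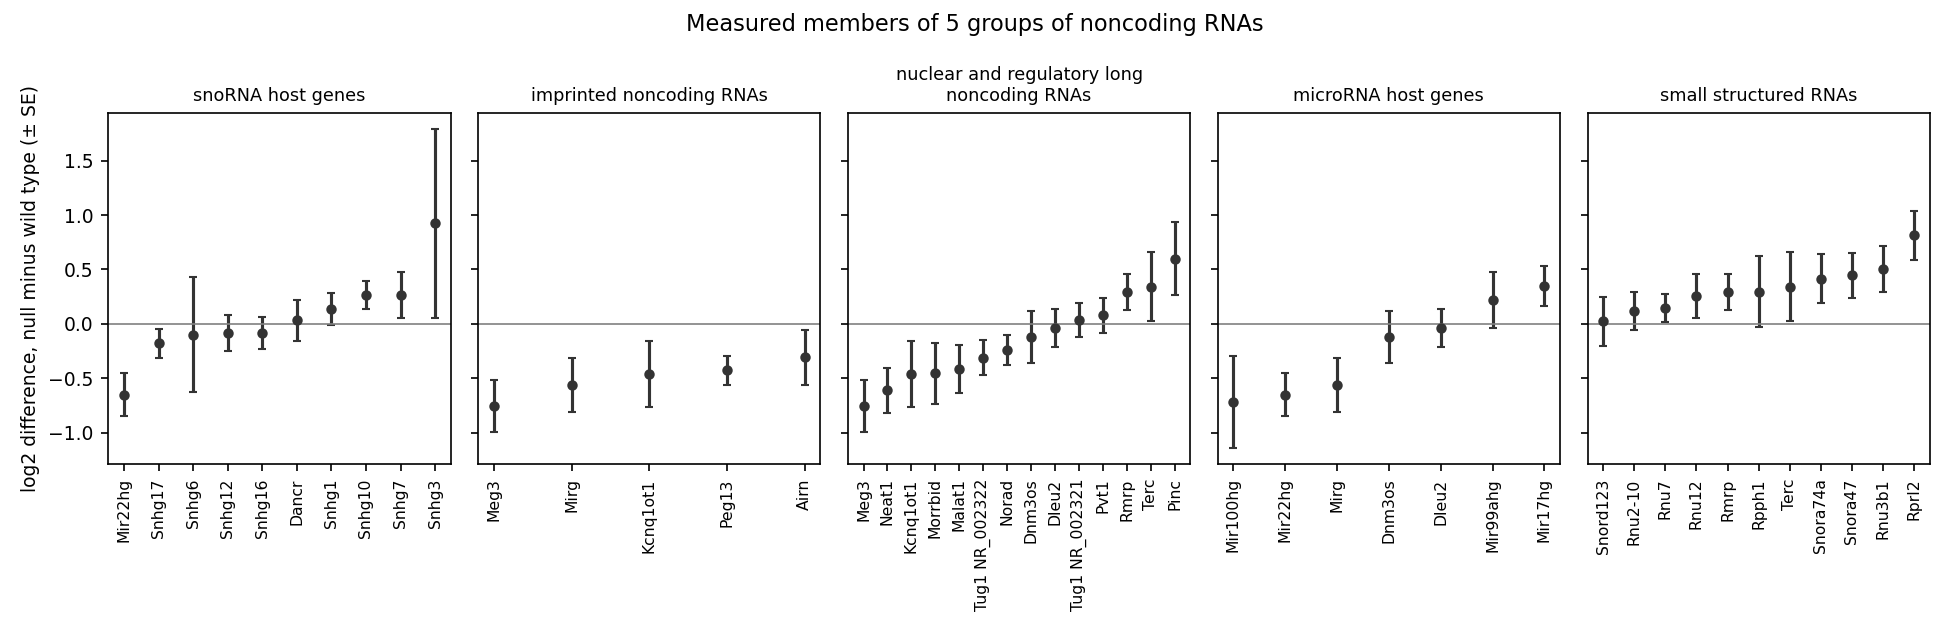
Log2 difference, null minus wild type, with its standard error (vertical axis) for each measured member of 5 groups of noncoding RNAs (horizontal axes). All 5 imprinted RNAs lie below 0, all 11 listed small structured RNAs lie above 0, and the other groups lie on both sides. No member of these groups passed the test, and some RNAs belong to several groups.

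Nuclear and regulatory long noncoding RNAs lay on both sides of wild type. Of 22 on the array, 14 were measured, 9 lower and 5 higher in null samples, with a median of -0.18. Without overlap 4 were lower and 0 higher, against 12.5% and 19.9% of all entries. This list shares members with those below. Rmrp and Terc, both higher, are also counted among the small structured RNAs. Meg3 and Kcnq1ot1 are also counted among the imprinted RNAs, and Dnm3os and Dleu2 among the microRNA hosts. No member of the list passed the test. Scaling on spike-ins turned the median to 0.08, against 0.29 over all entries, and the counts without overlap to 0 lower and 1 higher. Neat1 (NR_003513), the scaffold RNA of paraspeckles, was at 5.55, 5.69 and 5.28 in wild type and 5.23, 4.81 and 4.64 in null samples. The groups were separate, although wild-type sample 3 and null sample 1 nearly met, and the difference was -0.61 (SE 0.21; adjusted p = 0.145). Malat1 (NR_002847), a nuclear speckle RNA encoded next to Neat1, was at 3.20, 3.30 and 2.86 against 2.98, 2.81 and 2.33. Here the groups overlapped and the difference was -0.41 (SE 0.22; adjusted p = 0.299). Norad (NR_024329), an RNA that binds Pumilio proteins, differed by -0.24 (SE 0.14; adjusted p = 0.330). Tug1 was measured as 2 transcripts, NR_002322 with a difference of -0.31 and NR_002321 with 0.03 (SE 0.16 and 0.15). Pvt1 (NR_003368), encoded beside Myc, was at 0.29, 0.11 and 0.47 in wild type and 0.53, 0.28 and 0.30 in null samples, a difference of 0.08 (SE 0.16; adjusted p = 0.789). Pinc (NR_003202), a noncoding RNA known from the pregnant and involuting mammary gland, was dim at -4.73, -3.75 and -3.81 against -3.90, -3.04 and -3.55 (difference 0.60, SE 0.33; adjusted p = 0.316). The direction of the Pvt1 and Tug1 NR_002321 values turned when single samples were left out. Other RNAs of the list were not measured. Six3os1 in 3 transcripts, Dlx6os1, Hoxa11os and Pantr1 were well above background on no array, and Dlx1as on 1 null array.

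The measured imprinted noncoding RNAs had negative differences, none past the test. Of 9 on the array 5 were measured, and all 5 were lower in null samples, with a median of -0.46 against 0.04 over all entries and a summed scaled signal of 22.8 to 32.2 in wild type and 17.3 to 19.6 in null samples. In 2 of the 5 the null samples were below wild type without overlap, against 12.5% of all entries, and in 0 of 5 with spike-in scaling. The direction of all 5 held under every scaling tried (median -0.20 with spike-ins). Peg13 (NR_002864), an RNA within Trappc9 on chromosome 15, had the tightest values, at 3.18, 3.26 and 3.13 in wild type and 2.73, 2.71 and 2.84 in null samples. The groups were separate, and the difference was -0.43 (SE 0.13; adjusted p = 0.122). With the authors' deposited normalized intensities the difference was -0.51 (adjusted p = 0.0406), and with spike-in scaling -0.17 (adjusted p = 0.679). Kcnq1ot1 (NR_001461), the antisense RNA that silences genes around Kcnq1, was at 0.72, 0.92 and 0.68 against 0.77, 0.55 and -0.38, with a difference of -0.46 (SE 0.30) that was -0.11 without null sample 3. Airn (NR_027784), antisense to Igf2r, was at 0.06, 0.77 and 0.26 against 0.44, -0.02 and -0.25, a difference of -0.31 (SE 0.26; adjusted p = 0.495). Igf2r differed by -0.22 and Kcnq1 by -0.21, neither past the threshold. Ipw and Gnasas1 were well above background on no array, and Peg3os on 1 wild-type array.

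Meg3, Mirg and the transcript between them come from the maternally expressed noncoding strand of the Dlk1-Dio3 domain on chromosome 12. Meg3 (NR_027652) was at 3.81, 3.34 and 2.96 in wild type and 2.78, 2.43 and 2.66 in null samples. The null samples were all lower, and the difference was -0.75 (SE 0.24; 1.68-fold; adjusted p = 0.133). A second Meg3 probe gave -0.83. A shorter RefSeq form of Meg3 (NR_003633) was well above background on 1 array of each group and was not tested. 6430411K18Rik (NR_002848), whose span holds Mir433, was at -2.91, -3.34 and -3.88 against -4.52, -4.41 and -3.51, with null sample 3 inside the wild-type range and a difference of -0.77 (SE 0.35; adjusted p = 0.237). Mirg (NR_028265), which spans 10 microRNA genes, was at 2.66, 2.24 and 1.77 against 1.59, 1.51 and 1.89, a difference of -0.56 (SE 0.25; adjusted p = 0.226). In all 3 transcripts wild-type sample 1 was the highest of the 6 and wild-type sample 3 the lowest of its group. The 12 fibroblast markers differed by a median of -0.54 over the same samples, and the part of that shift in the values of Meg3 and Mirg was not tested.

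MicroRNA hosts lay on both sides of wild type. In the RefSeq table the spans of 13 members hold a microRNA gene, and 12 of these were measured. Of the 12, 3 were higher and 9 lower in null samples, with a median of -0.34. Among them 2 had an unadjusted p under 0.05 (24% of all entries did), and 0 passed the threshold. The 9 lower include Meg3, 6430411K18Rik and Mirg, all of the Dlk1-Dio3 domain. The shorter list of microRNA hosts, which also holds Mir99ahg (0.22), had 7 measured members, 2 higher and 5 lower (median -0.12). That median was 0.14 with spike-in scaling, against 0.29 over all entries, and 0.02 without wild-type sample 1. In both cases 4 of the 7 were higher. Mir22hg (NR_030711), the host of miR-22, was at 2.18, 2.20 and 1.71 in wild type and 1.42, 1.14 and 1.58 in null samples. The groups did not overlap, and the difference was -0.65 (SE 0.20; 1.57-fold; adjusted p = 0.124). Of its measured neighbours, Wdr81 differed by -0.44 (limma, adjusted p = 0.140) and Tlcd2 by 0.14 (adjusted p = 0.756). Mir100hg (NR_015483), which carries miR-100, miR-125b and a let-7 gene, differed by -0.72 (SE 0.42; adjusted p = 0.339), with wild-type sample 3 among the null values. Mir17hg (NR_029382), the host of the miR-17-92 cluster, was at 1.56, 1.46 and 1.62 against 2.15, 1.98 and 1.56, a difference of 0.35 (SE 0.19; adjusted p = 0.297), and null sample 3 lay within the wild-type range. Dleu2 (NR_028264), which carries miR-15a and miR-16, differed by -0.04 (SE 0.18; adjusted p = 0.910), and Dnm3os (NR_002870), which carries miR-199a and miR-214, by -0.12 (SE 0.24; adjusted p = 0.785). The sign of the Dleu2 and Dnm3os values turned under spike-in scaling. D7Ertd143e (NR_028425), whose span holds 7 genes of the miR-290 cluster, known from embryonic stem cells, had the most uneven values. It was at -0.13 and -0.99 in wild-type samples 2 and 3, but at -4.17 in wild-type sample 1, near the null values of -3.57, -3.75 and -4.06. The difference was -2.03 (SE 0.96; adjusted p = 0.250).

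The 10 transcripts listed as hosts of small nucleolar RNAs, Mir22hg counted among them, were all detected. All 10 were well above background on every array, 5 higher and 5 lower in null samples, with a median of -0.02 and 0 past the threshold. Mir22hg, described above as a microRNA host, is among the 5 lower, at -0.65. With spike-in scaling 9 of the 10 were higher (median 0.23, against 0.29 over all entries). Snhg1 (NR_002896), Snhg12 (NR_029468), Snhg16 (NR_027821) and Dancr (NR_015531) differed by 0.14, -0.08, -0.08 and 0.03, with standard errors of 0.14 to 0.19. Snhg10 (NR_003145) had the tightest values, at 0.16, 0.17 and 0.10 in wild type and 0.44, 0.40 and 0.39 in null samples, a difference of 0.27 (SE 0.12; adjusted p = 0.248). Snhg3 (NR_003270) split within each group, at 0.37, 0.09 and 2.60 in wild type and 0.37, 2.69 and 2.77 in null samples. Its difference of 0.92 had a standard error of 0.87. Snhg6 (NR_024067) was at 2.9 to 3.15 in wild type and at 1.65, 3.36 and 3.82 in null samples, and null sample 1 alone was low.

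The listed small structured RNAs had positive differences, none past the test. The list leaves out Rn4.5s (-0.04). In the whole RefSeq class of small structured or ribosomal RNAs, 12 of the 14 measured were higher and 2 lower. Of 13 on the array, 11 were measured and all 11 were higher in null samples, with a median of 0.30 and a summed scaled signal of 23.1 to 24.0 in wild type and 26.5 to 32.9 in null samples. In 4 of the 11 the null samples lay above wild type without overlap, against 19.9% of all entries, and 0 passed the threshold. Under quantile normalization 10 of 11 were higher, and without null sample 3, wild-type sample 1 or wild-type sample 3 also 10 of 11. Rnu3b1 (NR_004415), a U3 small nucleolar RNA of ribosomal RNA processing, was at 3.09, 3.04 and 2.96 in wild type and 3.12, 3.85 and 3.64 in null samples, and the difference was 0.51 (SE 0.21; adjusted p = 0.203). Several near-identical U3 copies exist, so the value is uncertain. Rmrp (NR_001460), the RNA of the ribonuclease MRP, was at 1.46, 1.34 and 1.82 against 1.81, 1.85 and 1.83 (difference 0.29, SE 0.17; adjusted p = 0.326). Snora47 (NR_034043) differed by 0.45 (SE 0.21) and Rpph1 (NR_002142), the RNA of ribonuclease P, by 0.30 (SE 0.33). The related Rprl2 (NR_004439) was well above background on 1 wild-type and 3 null arrays, at -5.18, -4.66 and -4.43 against -4.10, -3.73 and -3.99. With 2 of its wild-type values not well above background the size is uncertain, and the fitted difference of 0.81 became 0.19 with the authors' deposited intensities and 0.12 with normexp. Terc (NR_001579), the template RNA of telomerase, was at -4.20, -3.21 and -3.53 against -3.55, -2.81 and -3.56 (difference 0.34, SE 0.32; adjusted p = 0.542). Many of these RNAs lack a poly(A) tail, and the priming used for amplification was not stated in any label or header.

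The brightest probes among the members were those of the pseudogenes Gm8580, Gm6548, Gm5523, Gm12070, Gm5766, Gm10653, 1600029O15Rik and 1700073E17Rik, together with Rn4.5s and the 28S ribosomal RNA Rn28s1. Gm8580 (NR_027478) was at 9.39, 9.35 and 9.37 in wild type and 9.46, 9.54 and 9.85 in null samples, with a standard deviation of 0.02 in wild type. The difference was 0.25 (SE 0.15; adjusted p = 0.357). Differences for the 8 pseudogenes, each from its brightest probe, ran from 0.14 to 0.28, and none passed the test. A further probe gave -0.03 for Gm5523 and -0.03 for Gm6548. Further probes for Gm8580, Gm12070, Gm5766 and Gm10653 gave 0.16 to 0.37. For Gm12070, Gm5523 and Gm6548 the sign turned under quantile normalization and with the authors' deposited normalized intensities. Rn4.5s (NR_002841) differed by -0.04 (SE 0.15) and Rn28s1 (NR_003279) by 0.05 (SE 0.17), and both changed sign under other scalings. Probes this bright on pseudogenes may bind RNA of the coding copies, and the 2 cannot be told apart here.

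For pseudogenes named after a parent gene, both values could be set side by side. Hmgb1-rs17 (NR_033589) was at 3.97, 4.15 and 4.33 in wild type and 4.58, 5.14 and 4.85 in null samples, a difference of 0.71 (SE 0.19; adjusted p = 0.101), and Hmgb1, a chromatin protein gene, differed by 0.55 (SE 0.20; adjusted p = 0.170). Gpr137b differed by -0.43, against -0.99 for Gpr137b-ps. Pisd-ps1 differed by -0.26 and Pisd by -0.34, Tubb2a-ps2 by -0.32 and Tubb2a by -0.29, and Smarca5-ps by -0.12 and Smarca5 by -0.09. Further probes for Smarca5-ps, dimmer than the one reported, gave 0.07 and 0.10, so its sign depended on the probe. The pair signs were opposite for Rps15a-ps6 and Rps15a (-0.48 and 0.23) and for Pdxk-ps and Pdxk (0.10 and -0.08). None of these pairs passed the test on either side. Kif4-ps (NR_033653) was not measured, while Kif4, a mitotic kinesin gene, differed by 2.24 (adjusted p = 0.0868).

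Coding neighbours gave no call. Of the 51 named genes, 33 had a coding gene that overlaps them or lies within 10 kb in the RefSeq table, and 28 had a measured one. Of the 39 measured neighbours 0 passed the threshold. Slc3a2, an amino acid transporter subunit beside Snhg1, differed by -0.58 (SE 0.13; adjusted p = 0.0723) while Snhg1 differed by 0.14. Sit1, a lymphocyte signalling gene near Rmrp, differed by -1.33 (SE 0.29; adjusted p = 0.0732). Trappc9, around Peg13, differed by -0.20 (SE 0.14; adjusted p = 0.424).

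Other probes for the same transcript mostly gave the same sign. Of the measured members, 57 had further probes. Of the 49 such probes well above background on at least 3 arrays, 40 had the sign of the value reported. Norad was the widest exception in size, with further probes at -0.18, -0.27 and -2.03 beside -0.24. Among members seen in 1 group only, 2310001K24Rik (NR_028122) was well above background on 0 of 3 wild-type and 3 of 3 null arrays. Its levels were -6.23, -5.02 and -5.76 against -4.69, -4.35 and -4.14, and it was at least 1.19-fold higher in null samples. For that bound, each wild-type array counted at its detection limit (the lowest level well above background) unless the measured level was greater. The adjusted p of the limma fit, which reads the undetected wild-type values as measured, was 0.0891.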

How the data were processed

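Total RNA of 3 wild-type and 3 Plk2 null samples, extracted with Trizol and labelled with Cy3 per the labels' protocols, was hybridised to 1-colour Agilent arrays of design 028005. Per the file headers, the deposited intensity values came from Agilent Feature Extraction 11.0.1.1 with protocol GE1_1100_Jul11, were background-corrected by that software and were not normalized between arrays. The authors' deposited normalized table, of intensity values too, served as an alternative; how it was made is stated in no label or header. Of 62976 spots per array, 3671 controls were left out, as were 1119 gene spots flagged as outliers over the 6 arrays; 0 spots were saturated. The flag for well above background was read per spot, and the precision is limited by the number of arrays.

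From the deposited intensity, log2 levels were computed and centred on each array's 75th percentile over gene spots. Each accession was represented by its probe with the highest mean. Accessions were matched without version to a RefSeq gene table on GRCm38.p6 (600 of 652 NR_ accessions), used for symbols, classes, chromosomes and neighbours only, since the arrays are annotated on another build. Entries well above background on at least 3 of 6 arrays were fitted in R 4.3.3 with limma 3.58.1 (lmFit, then eBayes), null minus wild type, with Benjamini-Hochberg adjustment over all of them and 33 missing values. The steps were tested on simulated arrays. Sample counts were compared with a 2-sided exact permutation test.

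The text names every member past the threshold, the 10 members with the highest mean, the 8 largest differences in each direction among members detected on all 6 arrays without overlap, the 3 smallest p of each noncoding list, and 30 fixed RNAs, of which 18 are among the members; Gas5, H19, Rian, Zfas1 and the others are not analysed here. Members beyond this rule (among them D7Ertd143e, 6430411K18Rik, Snhg3, Snhg6, Norad, Hmgb1-rs17, 2310001K24Rik and Gm5801) were chosen after their values were seen. The members, lists and tests were chosen with earlier results of these data known. Alternatives covered background correction, normalization, filters, probe choice, array weights, moderation, a replicate block, the deposited table and each sample left out.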

Additional observations from a re-analysis of the deposited data

How the results depend on the processing

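Of 52 named transcripts tested under up to 19 alternatives, 41 calls were lost and 11 gained, and 29 values changed sign, all of them in transcripts that were not past the threshold; the cause was not tested. The count of members higher in null samples, 2 as reported, was 0 with entries above background on at least 1 array, without a filter and with the replicate block, 1 with quantile normalization, 4 with normexp, spike-in scaling and the deposited table, and 5 with array weights. The count of lower members, 3 as reported, was 1 with entries above background on at least 1 array, without a filter and with spike-in scaling, 0 with the replicate block and 8 with array weights. Leaving out 1 sample at a time gave 0 to 2 higher and 1 to 6 lower calls. It gave 51 to 64 members above and 30 to 46 below wild type without overlap, and a median difference of 0.06 to 0.11. Both directions together made 31.5% to 40.9% of the members, against 37.5% to 47.5% of all entries. Without a filter 70 members lay below without overlap and the median was -0.12. In either direction that setting had 22.1% of the members and 25.7% of all entries without overlap. With spike-in scaling 69 members lay above and 9 below, and the median was 0.35. The shares were then 30.4% of the members and 33.0% of all entries, whose median was 0.29. Groups of fewer samples overlap less easily. Peg13 passed the threshold with the deposited table, and Tyms-ps with spike-in scaling.

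Signs turned as follows. With spike-in scaling Dleu2 was 0.22, Dnm3os 0.14, Rn4.5s 0.21, Snhg12 0.17 and Snhg17 0.078. With quantile normalization Dleu2 was 0.00957, Gm12070 -0.021, Gm5523 -0.029, Gm6548 -0.035 and Rn28s1 -0.10. With the deposited table Dleu2 was 0.000429, Gm12070 -0.047, Gm5523 -0.030, Gm6548 -0.055 and Rn28s1 -0.16. With 1 value per gene the Tug1 value was -0.31. With 1 sample left out the range was -0.14 to 0.10 for Dleu2, -0.38 to 0.025 for Dnm3os, -0.013 to 0.17 for Pvt1, -0.0607 to 0.14 for Rn28s1, -0.15 to 0.025 for Rn4.5s, -0.16 to 0.016 for Snhg12 and -0.024 to 0.12 for Tug1 (NR_002321). Over the whole array 153 entries were called higher and 185 lower; these became 740 and 547 with normexp, 95 and 137 with quantile normalization, 348 and 193 with spike-in scaling, 522 and 457 with trend and robust moderation, 644 and 756 with array weights, 435 and 427 with the deposited table, 277 and 230 with entries above background on all 6 arrays, 14 and 33 on at least 1, 10 and 33 without a filter, 292 and 566 without null sample 3, and 7 to 28 and 20 to 34 without any other sample.

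The replicate numbers were not used to pair the samples in the reported fit. Same-numbered arrays correlated in their deviations at -0.11, 0.00098 and -0.057, and differently numbered ones at -0.13 to 0.19. With 3 samples per group these values cannot exclude a pairing, and same-numbered arrays shared a slide column. With the replicate block 2 entries were called higher and 6 lower, among them 0 members, and the adjusted p of the 5 reported calls was 0.0681 (Gm6524) to 0.140 (2010016I18Rik). Low brightness limits the values: 253 of 562 members were above background on no array, and for these no difference can be read.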

Other observations

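Further members with an adjusted p between 0.05 and 0.1, picked after their values were seen, had tight groups and modest differences. The pseudogene Macroh2a3 (NR_003523) was at 0.23, 0.14 and 0.40 in wild type and 0.78, 1.0 and 0.75 in null samples, a difference of 0.58 (SE 0.15; limma, adjusted p = 0.0913). The long noncoding RNA 1110020A21Rik (NR_027930) was at -1.90, -1.78 and -1.63 against -1.17, -0.89 and -1.02 (difference 0.74, SE 0.15; adjusted p = 0.0657). Dlx6os2 (NR_002839), from the Dlx5-Dlx6 region, was at -3.73, -3.81 and -3.70 against -3.24, -3.01 and -3.19 (difference 0.60, SE 0.14; adjusted p = 0.0794). On the lower side, Gm8884 (NR_026561) was at -1.54, -1.20 and -1.55 against -2.44, -2.31 and -2.02 (difference -0.83, SE 0.18; adjusted p = 0.0734). In none of these 4 did the groups overlap.

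The largest fitted difference of any measured member belonged to Gm5801 (NR_002889), a pseudogene on chromosome 14. Its level was -6.55 in wild-type sample 1, where the processed signal was 2.78, but 0.16 and 0.34 in the other wild-type samples and 1.20, 1.19 and 1.17 in the null samples. The difference of 3.20 had a standard error of 1.75 (adjusted p = 0.309). Snhg3 showed a split of a similar kind that did not follow the groups, with 3 samples at 0.09 to 0.37 and 3 at 2.60 to 2.77.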
